A study of Mus musculus with 9 samples.

Results

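The circadian clock of mammalian cells is a loop of transcription factors that run through a daily rhythm in nearly every tissue, skin included. BMAL1 (gene *Arntl*, also called *Bmal1*) and CLOCK bind E-box sequences and switch on the *Per* and *Cry* genes, whose proteins then repress BMAL1 and CLOCK, while the nuclear receptors REV-ERBα (*Nr1d1*) and REV-ERBβ (*Nr1d2*) repress *Arntl* in a second loop and DBP carries the rhythm to output genes through D-box sequences. In skin the clock is known to run in keratinocytes, fibroblasts and hair follicles and to time DNA repair, proliferation and the hair cycle. The genes described here are those 10 textbook genes of the loop, *Arntl*, *Clock*, *Per1*, *Per2*, *Per3*, *Cry1*, *Cry2*, *Nr1d1*, *Nr1d2* and *Dbp*, taken by their names from a table of 17943 genes.

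Bulk RNA-Seq libraries of whole skin from 5 control mice and 4 *Supt6*-KO mice were compared, and the question was how the loss of SPT6, a histone chaperone that travels with elongating RNA polymerase II, changed the transcripts of the clock. *Supt6*-KO mice carried K14-CreERT and *Supt6* fl/fl and received tamoxifen as 5 daily intraperitoneal injections begun at the first telogen, the resting phase of the hair cycle. According to the study's methods the controls were *Supt6* fl/fl mice given corn oil, whereas the sample labels call them wild type, so the groups differ in the Cre transgene, in tamoxifen and in the deletion. All mice were harvested on day 10 after the last injection. The study describes the *Supt6*-KO skin as lesional and the control skin as matched dorsal skin, so the groups also differ in lesions. The keratin 14 promoter drives Cre in basal keratinocytes, while the libraries hold every cell type of the skin, so fewer cells of a type and less RNA per cell cannot be told apart. The labels give ear and the methods dorsal skin, and cartilage transcripts were present in the controls (the 5 listed cartilage markers summed to 342 ± 155 CPM, SD, n = 5, led by *Acan*, which encodes aggrecan). Mice lived under a 12-h light and dark cycle. The hour of harvest is not given in the sources used here, so every value is a level at 1 unknown time of day, phase and amplitude were not measured, and a difference between the groups in harvest hour cannot be told apart from the deletion.

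Estimated counts summed to 29627341 to 30491197 per control mouse and 30597189 to 30967107 per *Supt6*-KO mouse. Levels are given as CPM, the counts of a gene relative to a library's total after scaling by edgeR's TMM factors. The control mice had factors of 1.198 to 1.315 and the *Supt6*-KO mice of 0.6738 to 0.9098, so the scaling matters for small changes. A gene was called when the quasi-likelihood test of edgeR gave it a p under 0.05 after Benjamini-Hochberg adjustment across the 16426 genes tested. The libraries also differed in how counts varied with transcript length. Relative to the other mice, the slope in log2 units per log10 of length was 0.45 to 1.65 in the controls and -1.41 to -0.756 in the *Supt6*-KO mice. The signs compare mice and do not say whether counts rose or fell with length within a library. Control mice 1 and 3 had 3 and 2 counts in all over 4 Y-linked genes, against 5483 to 7345 in the other 7 mice. All *Supt6*-KO mice were among those 7. Controls 1 and 3 were thus probably female and the rest male, so sex was probably not balanced between the groups. The labels give no sex. Nothing in the sources says how the mice were related, and the p-values measure the spread between these 9 mice.

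*Supt6* itself (chr11:78206749-78245972; all gene coordinates are RefSeq, GRCm38/mm10) had 74.5, 56.6, 63.6, 91.1 and 96.7 CPM in controls 1 to 5 and 28.6, 24.1, 21.9 and 28.4 CPM in *Supt6*-KO mice 1 to 4. All *Supt6*-KO mice lay below all controls, at 33.7% of the control mean (log2 fold change -1.57, SE 0.18, adjusted p = 1.3e-05, edgeR). The size of this loss moved with the processing, to -0.64 after a correction for transcript length and to -2.26 with library totals in place of TMM factors, and it stayed below 0 and called in both.

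Most of the clock genes were lower in the *Supt6*-KO skin, and *Clock* was higher, though it was not called when libraries were scaled by their totals alone. All 10 passed the filter on low counts. Of them 8 were called lower, where 36.8% of all genes tested were, 1 was called higher, where 34.1% of all genes were, and *Nr1d2* was not called. In either direction 71.0% of all genes were called, so a call alone sets no gene apart in this comparison. With a change of at least 2-fold asked for as well, 7 of the 10 were lower (24.9% of all genes) and 0 were higher (20.9% of all genes). In 7 of the 10 every *Supt6*-KO mouse lay below every control (31.8% of all genes), in *Clock* every *Supt6*-KO mouse lay above (28.9% of all genes), and the groups overlapped for *Cry1* and *Nr1d2*. The median log2 fold change of the 10 genes was -1.86, against -0.072 for all genes tested. For each of the 8 genes whose groups did not overlap, the two-sided exact permutation test gave p = 0.0159, the smallest that 5 mice against 4 allow.

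**Figure D1:**
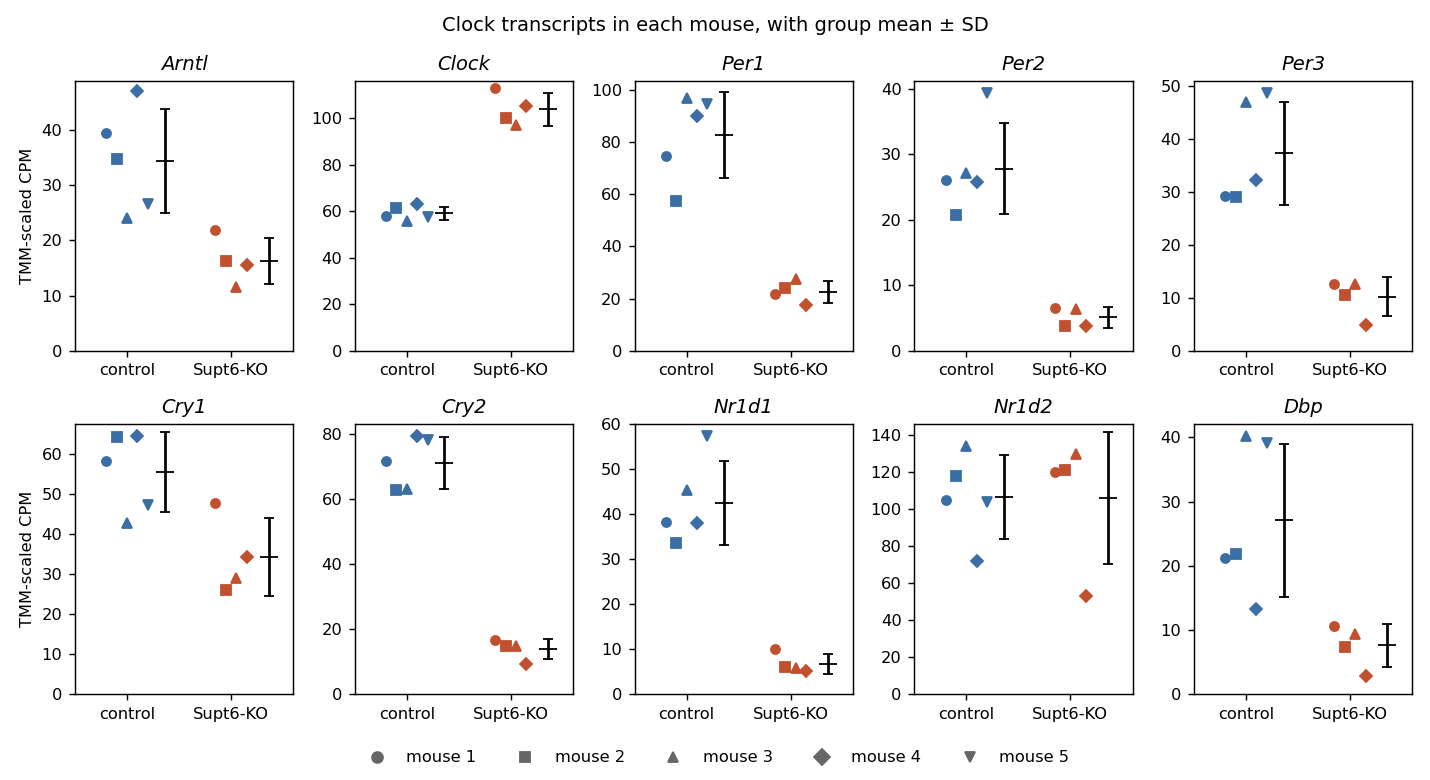
TMM-scaled CPM of the 10 clock genes in each mouse (control n = 5, *Supt6*-KO n = 4), with the group mean ± SD beside the points. Symbols are mouse numbers within a group, and whether equal numbers pair mice across groups is not known. *Clock* is higher in all 4 *Supt6*-KO mice, *Cry1* and *Nr1d2* overlap between the groups, and the other 7 genes are lower in all 4.

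Some of the clock genes hold letters of known clock motifs close to a start of transcription. Promoter windows from 250 bases before to 50 bases after an annotated start were taken from RefSeq (GRCm38.p6), and 9 of the 10 genes had one, all but *Per2*. Both strands were searched for the E-box CACGTG, the D-box TTANGTAA and the ROR element TAGGTCA, and no match of one overlapped another. The E-box was in 7.15% of all 32851 windows, the D-box in 2.32% and the ROR element in 2.61%. Among the 10 genes the E-box was found for *Per1* and *Cry1*, the D-box for *Per3* and the ROR element for *Arntl*. A match describes letters in these windows, and their use was not measured. The stretches around the matches are shown 5′ to 3′ on the strand of the gene, with the motif in capitals, because they hold the letters that factors of the loop are known to bind. Of 25 other pathway genes with a window, described further on, *Bhlhe41*, *Ciart*, *Sirt1* and *Tef* held an E-box, *Rorb* and *Timeless* a D-box and *Nfil3* a ROR element, and they include genes that fell and genes that were not called. *Ciart* is shown because its window held 3 E-boxes, the most among these genes. The stretches are chr11:69098743-69098828 (plus strand) for *Per1*, chr10:85185069-85185154 (minus) for *Cry1*, chr3:95882229-95882384 (minus) for *Ciart*, chr4:151044776-151044910 (minus) for *Per3* and chr7:113207530-113207558 (plus) for *Arntl*.
Per1, E-box: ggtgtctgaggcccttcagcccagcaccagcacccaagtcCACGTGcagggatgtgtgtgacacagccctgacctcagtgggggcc
Cry1, E-box: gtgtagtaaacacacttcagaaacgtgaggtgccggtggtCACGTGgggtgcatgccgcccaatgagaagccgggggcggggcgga
Ciart, E-box: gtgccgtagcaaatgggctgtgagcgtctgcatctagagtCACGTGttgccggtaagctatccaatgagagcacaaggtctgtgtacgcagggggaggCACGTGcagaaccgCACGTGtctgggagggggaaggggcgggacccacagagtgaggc
Per3, D-box: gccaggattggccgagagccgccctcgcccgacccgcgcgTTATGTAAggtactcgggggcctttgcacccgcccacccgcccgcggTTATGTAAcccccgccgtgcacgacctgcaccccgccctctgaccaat
Arntl, ROR element: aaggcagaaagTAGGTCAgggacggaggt

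Counted from the annotated start of transcription of each window, the E-boxes of *Per1* and *Cry1* began at positions -166 and -60, and those of *Ciart* at -116, -58 and -44. The D-boxes of *Per3*, both TTATGTAA, began at -205 and -158. The ROR element of *Arntl* began at position 31, after the start. For *Arntl* and *Per1* the start of the window lies far inside the span given for the gene, not at its first base.

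The activators moved in opposite directions. *Clock* (chr5:76209868-76305603), which encodes the histone acetyltransferase partner of the pair, had 57.7, 61.2, 55.6, 62.9 and 57.5 CPM in the controls and 113, 100, 97 and 105 CPM in the *Supt6*-KO mice. The lowest *Supt6*-KO mouse was well above the highest control, and the spread within either group was small. The mean rose from 59 ± 2.96 to 104 ± 6.72 CPM (SD, n = 5 and 4), a log2 fold change of 0.81 (SE 0.10, adjusted p = 1.9e-05, edgeR). With library totals it was 0.12 and not called (adjusted p = 0.43, edgeR), and after a correction for transcript length it was 1.78. *Arntl* (chr7:113178471-113314126), which encodes BMAL1, had 39.4, 34.8, 24, 47.1 and 26.6 CPM in the controls and 21.8, 16.3, 11.6 and 15.5 CPM in the *Supt6*-KO mice. The groups did not overlap, but *Supt6*-KO mouse 1 came close to control 3. The mean fell from 34.4 ± 9.44 to 16.3 ± 4.2 CPM, with a log2 fold change of -1.08 (SE 0.23, adjusted p = 0.0014, edgeR). Within a mouse the log2 ratio of *Clock* to *Arntl* counts does not depend on how libraries are scaled, and it was 0.42 to 1.21 in the controls and 2.37 to 3.06 in the *Supt6*-KO mice.

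All 3 *Per* genes, E-box targets whose proteins carry CRY into the repressor complex, were lower. *Per1* (chr11:69095108-69109965) had 74.8, 57.4, 96.9, 89.8 and 94.6 CPM in the controls and 21.9, 23.9, 27.5 and 17.4 CPM in the *Supt6*-KO mice, 27.4% of the control mean (log2 fold change -1.87, SE 0.19, adjusted p = 5.7e-06, edgeR). *Per2* (chr1:91415977-91459351) had 26, 20.8, 27.2, 25.7 and 39.4 CPM in the controls and 6.56, 3.74, 6.4 and 3.74 CPM in the *Supt6*-KO mice, 18.4% of the control mean (log2 fold change -2.45, SE 0.25, adjusted p = 6.1e-06, edgeR). In both genes every *Supt6*-KO mouse lay far below the lowest control, control 2. *Per3* (chr4:150997018-151044707), the member of the family that the rhythm needs least, had 29.2, 29.1, 46.9, 32.3 and 48.7 CPM in the controls and 12.6, 10.6, 12.6 and 4.81 CPM in the *Supt6*-KO mice. Its lowest value was in *Supt6*-KO mouse 4, and its mean was 27.3% of that of the controls (log2 fold change -1.88, SE 0.29, adjusted p = 0.00012, edgeR). *Per3* lies within the longer *Camta1* gene on the same strand in the GENCODE annotation, and *Camta1* had a log2 fold change of -0.47. A correction for transcript length made the changes of the *Per* genes smaller, with log2 fold changes of -1.21 for *Per1*, -1.58 for *Per2* and -0.99 for *Per3*, all still called by edgeR.

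The cryptochromes, the light-independent repressors that block CLOCK and BMAL1 directly, differed in size of change. *Cry2* (chr2:92403646-92434085) had 71.6, 62.8, 63.1, 79.5 and 78.1 CPM in the controls and 16.7, 14.9, 14.6 and 9.34 CPM in the *Supt6*-KO mice. The groups were far apart, and the mean fell to 19.6% of the control level (log2 fold change -2.35, SE 0.17, adjusted p = 9.7e-07, edgeR). *Cry1* (chr10:85131700-85185054) had 58.4, 64.3, 42.9, 64.7 and 47.3 CPM in the controls and 47.9, 26, 28.9 and 34.2 CPM in the *Supt6*-KO mice. *Supt6*-KO mouse 1 lay above controls 3 and 5, so the groups overlapped, and the mean was 61.7% of that of the controls (log2 fold change -0.70, SE 0.19, adjusted p = 0.0072, edgeR; p = 0.0476 in the two-sided exact permutation test). The log2 ratio of *Cry1* to *Cry2* counts was -0.72 to 0.03 in the controls and 0.80 to 1.87 in the *Supt6*-KO mice. *Cry1* and *Per1*, which both hold an E-box in the stretches shown, stood at 61.7% and 27.4% of their control levels.

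The REV-ERB genes parted in the same way. *Nr1d1* (chr11:98767932-98775377) had 38.3, 33.6, 45.5, 38.1 and 57.4 CPM in the controls and 9.9, 5.9, 5.76 and 5.14 CPM in the *Supt6*-KO mice. No *Supt6*-KO mouse came near a control, and at 15.7% of the control mean it was the most reduced of the 10 genes (log2 fold change -2.67, SE 0.23, adjusted p = 2.4e-06, edgeR). *Nr1d2* (chr14:18204056-18239106) had 105, 118, 134, 72.2 and 104 CPM in the controls and 120, 121, 130 and 53 CPM in the *Supt6*-KO mice. Here 3 *Supt6*-KO mice lay within the control range and mouse 4 below it, and the log2 fold change was -0.01 (SE 0.25, adjusted p = 0.98, edgeR; p = 0.841 in the two-sided exact permutation test). Without *Supt6*-KO mouse 4 it was 0.21, and after a correction for transcript length 0.65 (adjusted p = 0.059, edgeR), so no direction can be given for *Nr1d2*. The log2 ratio of *Nr1d2* to *Nr1d1* counts was 0.86 to 1.81 in the controls and 3.37 to 4.49 in the *Supt6*-KO mice.

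*Dbp* (chr7:45705100-45710203), a PAR bZIP factor and a direct E-box target, was the most variable of the 10 genes. It had 21.2, 21.8, 40.2, 13.3 and 39.1 CPM in the controls and 10.6, 7.39, 9.42 and 2.87 CPM in the *Supt6*-KO mice. The groups did not overlap, although control 4 was close to *Supt6*-KO mouse 1. The mean fell from 27.1 ± 12 to 7.57 ± 3.4 CPM, with a log2 fold change of -1.84 (SE 0.41, adjusted p = 0.0017, edgeR).

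*Nr1d1* and *Dbp* each share bases with a neighbour on the opposite strand. The end of *Nr1d1* overlaps *Thra*, the thyroid hormone receptor α gene, over 1075 bases (chr11:98767932-98769006), and *Dbp* overlaps *Sphk2*, a sphingosine kinase gene, over 737 bases (chr7:45709467-45710203). Whether strand was used in counting is not given in the sources used here, so reads from these stretches may belong to either gene. *Thra* (log2 fold change -1.43) had 2008 to 2798 counts in the controls and 488 to 712 in the *Supt6*-KO mice, and *Sphk2* had 1786 to 2374 and 432 to 732. *Cry2* is likewise overlapped by the opposite-strand transcript *D930015M05Rik*, and *Arntl* by the antisense gene *Gm45355* over 2394 bases of its span.

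The ratios put the divergence between relatives on a scale free of library size. Their group means differed by 1.88 (*Clock* over *Arntl*), 2.63 (*Nr1d2* over *Nr1d1*) and 1.66 (*Cry1* over *Cry2*) on the log2 scale. The ratios were not corrected for transcript length, and that correction took the log2 fold changes of *Clock* and *Arntl* to 1.78 and -0.94. By contrast *Per1* and *Per2* moved more nearly together, with a log2 ratio of 1.58 ± 0.24 in the controls and 2.18 ± 0.39 in the *Supt6*-KO mice and overlapping groups. *Arntl* over *Dbp*, transcripts that peak at opposite times of day in mouse tissues, had a log2 ratio of 0.42 ± 1.07 in the controls and 1.23 ± 0.89 in the *Supt6*-KO mice, and these groups overlapped too.

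Per length of transcript, the mean levels of the clock genes in control skin fell into 2 ranges. TPM values, which divide by length, were deposited for the 5 controls and *Supt6*-KO mouse 4. In the controls *Nr1d2* was highest (38.8 ± 7.19 TPM, SD, n = 5), followed by *Cry1* (32.6 ± 6.06), *Dbp* (32.1 ± 15.9), *Cry2* (30.9 ± 7.04), *Per1* (30.5 ± 8.48), *Nr1d1* (28.1 ± 9.52) and *Arntl* (21.2 ± 6.35). *Per3* (10.5 ± 3.63), *Clock* (10 ± 1.3) and *Per2* (8.19 ± 3.11) were lowest. Only the step from *Arntl* to *Per3* exceeded the sum of both neighbours' SDs, and all other neighbours in this order lay within it. Values of different mice still crossed that step, with *Arntl* at 13.42 TPM in control 3 and *Per3* at 16.18 TPM in control 5. In *Supt6*-KO mouse 4, the single mouse of its group with TPM, the order was *Cry1* (10.09 TPM), *Nr1d2* (9.74), *Clock* (8.85), *Arntl* (4.79), *Per1* (3.17), *Cry2* (2.01), *Dbp* (1.68), *Nr1d1* (1.67), *Per3* (0.67) and *Per2* (0.54). *Clock* thus moved from the ninth place to the third in that mouse, although its own TPM was not above the control mean. TPM are not TMM-scaled, and this mouse had the highest TMM factor of its group.

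The mice of a group also differed from one another. Among the controls *Arntl*, *Cry1* and *Clock* were highest in control 4 and lowest in control 3, while *Dbp* and *Nr1d2* were highest in control 3 and lowest in control 4. *Per2*, *Per3* and *Nr1d1* were highest in control 5 and lowest in control 2. The spread among controls was 3.02-fold from lowest to highest for *Dbp*, 1.96-fold for *Arntl* and 1.13-fold for *Clock*. The SD of log2 CPM among controls was 0.67 for *Dbp*, above that of 97.6% of the 13564 genes with a mean of at least 1 CPM, 0.40 for *Arntl* (above 90%) and 0.07 for *Clock* (above 5.4%), where the median gene had 0.20. In the *Supt6*-KO group mouse 1 was highest for *Arntl*, *Cry1*, *Cry2*, *Per2*, *Nr1d1*, *Clock* and *Dbp*, and mouse 4 was lowest for *Per1*, *Per3*, *Cry2*, *Nr1d1*, *Nr1d2* and *Dbp*. Mouse 4 also had the highest sum of the 4 stress keratins (22838 CPM, against 2949 to 5513 in the other 3), and control 5 had the highest length slope (1.65). Their part in the spread was not tested, and with 5 and 4 mice no correlation is given.

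**Figure D2:**
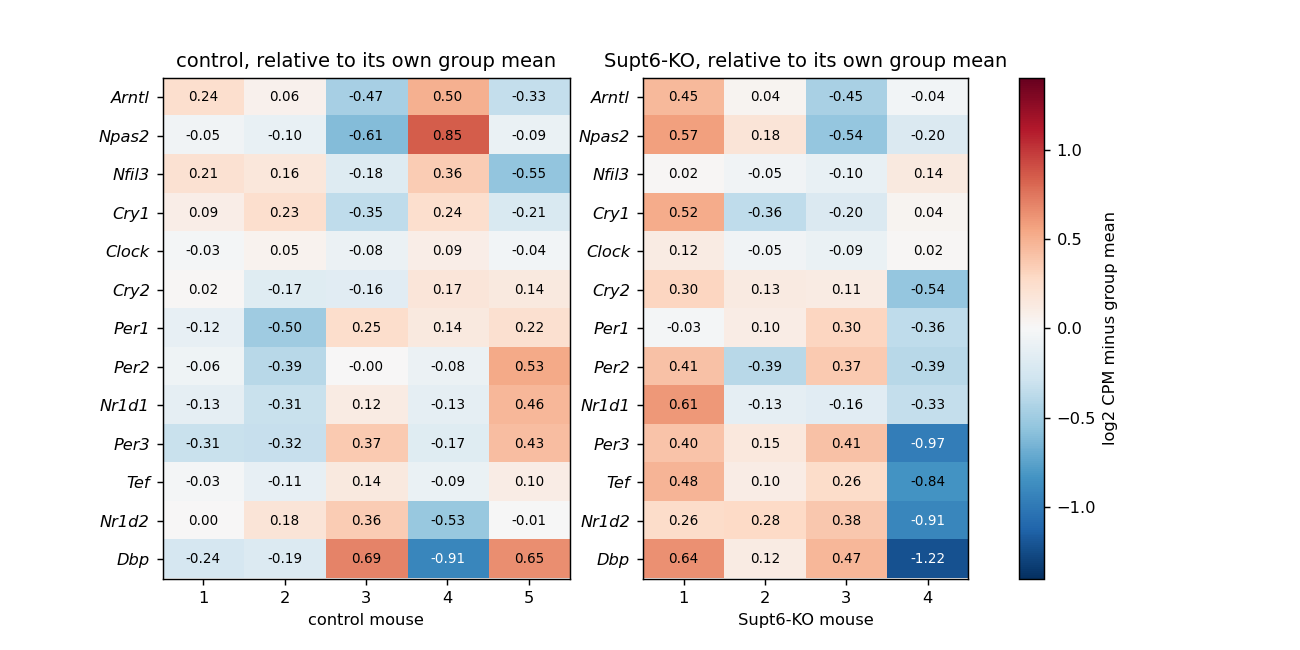
Deviation of each mouse from its own group mean in log2 CPM for the 10 clock genes and *Npas2*, *Nfil3* and *Tef* (left, control, n = 5; right, *Supt6*-KO, n = 4; red above and blue below the mean). In control 4 *Arntl* (0.50) and *Npas2* (0.85) lie above and *Dbp* (-0.91) and *Nr1d2* (-0.53) below their means, control 3 has the reverse, and *Clock* stays within 0.12 of its mean in all 9 mice.

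Likeness of pattern over the 9 mice was measured as the root mean square difference of log2 CPM, each gene centred on its own mean, among 13564 genes. The genes nearest to *Dbp* were *Per3* (0.307), *Lrp4* (0.416), *Epm2a* (0.422), *Aox1* (0.427) and the PAR bZIP gene *Tef* (0.429). So 2 of the 5 are clock genes, and *Per1* and *Per2* stood at ranks 107 and 169. The genes nearest to *Arntl* were *Jund* (0.151), *Fam83g* (0.181), *Ctdp1* (0.188), *Clip1* (0.189) and *Rnf220* (0.191), with *Cry1* the nearest of the 10 clock genes at rank 82. Much of such likeness is the shared difference between the groups.

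Beyond the 10 genes, 31 other genes of the clock pathway were examined, from a list made by textbook role. Of these 4 were called higher and 18 lower by edgeR, against 34.1% and 36.8% of all genes, and 9 were not called. Their median log2 fold change was -0.64, against -0.072 for all genes. With at least 2-fold asked for, 2 were higher (20.9% of all genes) and 14 lower (24.9% of all genes). After the length correction 8 were higher and 14 lower, 9 of these at least 2-fold lower, and of all 16363 genes tested under it 5813 were higher and 5205 lower, 3263 of these at least 2-fold.

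Among the other activators, *Npas2*, a relative of *Clock* that can stand in for it, fell from 7.23 ± 2.98 to 0.658 ± 0.238 CPM (log2 fold change -3.45, SE 0.36, adjusted p = 7.2e-06, edgeR). *Arntl2*, the relative of *Arntl*, rose from 3.91 ± 0.901 to 12.7 ± 2.19 CPM (log2 fold change 1.70, SE 0.19, adjusted p = 1.4e-05, edgeR). So the pair of relatives showed the reverse of *Clock* and *Arntl* themselves. *Rora*, whose product activates *Arntl*, fell from 336 ± 40.4 to 136 ± 53.2 CPM, and its relative *Rorb* was close to absent at 0.0476 and 0.0737 CPM. *Rora* was no longer called after the length correction (log2 fold change -0.35, adjusted p = 0.22, edgeR).

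Of the 4 other repressors 2 fell, where 36.8% of all genes did. *Bhlhe41*, which encodes the E-box repressor DEC2, fell from 12 ± 3.89 to 1.78 ± 0.576 CPM (log2 fold change -2.76, adjusted p = 7e-06, edgeR), and *Ciart*, which encodes CHRONO, fell from 12 ± 1.5 to 3.83 ± 1.36 CPM (-1.65, adjusted p = 7.7e-05, edgeR). *Bhlhe40*, which encodes the relative DEC1, was not called (-0.15), nor was *Timeless* (-0.28, and 0.32 after the length correction). With library totals both genes were called lower (-0.81 and -0.92). The D-box activators *Hlf* (-3.04, adjusted p = 2.2e-05, edgeR, and -2.21 after the length correction) and *Tef* (-1.56, adjusted p = 7.7e-05, edgeR) fell as *Dbp* did. *Nfil3*, whose product competes with them at the D-box as a repressor, had 24.9 ± 5.87 CPM in the controls and 25.6 ± 1.9 CPM in the *Supt6*-KO mice and was not called (log2 fold change 0.04).

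Of the 8 listed genes for kinases and ubiquitin machinery that set the life of PER and CRY proteins, 5 fell, where 36.8% of all genes did. *Csnk1d* (log2 fold change -0.64), *Gsk3b* (-1.19) and *Csnk2a1* (-0.32) were the kinase genes that fell, though *Csnk1d* was no longer called (-0.23) and *Csnk2a1* turned positive (0.24, adjusted p = 0.061, edgeR) after the length correction, which also brought *Gsk3b* to -0.46. *Csnk1e* was not called (0.28), but it was called higher after the length correction (0.41) and lower with library totals (-0.44). *Btrc*, for the ligase subunit β-TrCP that acts on PER, fell (-1.29), and *Usp2*, a deubiquitinase gene, fell (-1.60). *Fbxw11*, the relative of *Btrc*, was not called (0.20), but it was called higher after the length correction (0.70) and lower with library totals (-0.48). *Fbxl21* was low in both groups at 0.582 and 0.409 CPM and not called.

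Of the 7 cofactor genes 4 fell and 2 rose, where 71.0% of all genes were called in either direction. *Crebbp*, for the acetyltransferase CBP, fell from 17.1 ± 4.75 to 2.46 ± 0.845 CPM (-2.79, adjusted p = 7.4e-06, edgeR, and -1.68 after the length correction), while its relative *Ep300* fell from 36.2 ± 10.8 to 18.1 ± 3.3 CPM in the fit as made and had a log2 fold change of 0.13 (adjusted p = 0.47, edgeR) after the length correction. The corepressor genes that work with REV-ERB differed in direction, *Ncor1* falling (-1.26, and -0.29 after the length correction) and *Hdac3* rising (0.82, but 0.12 with library totals, adjusted p = 0.34, edgeR). *Nono* fell (-0.77), and *Wdr5* rose (0.36) but had -0.32 with library totals. *Sirt1* was not called (0.16), but it was called higher after the length correction (0.64) and lower with library totals (-0.52). Of the 5 clock-controlled outputs *Wee1*, a cell cycle kinase gene (-1.69), *Klf9* (-2.59, and -1.95 after the length correction) and *Cdkn1a*, which encodes p21 (-0.58), fell. *Klf10* rose from 48.9 ± 2.67 to 147 ± 21.4 CPM (1.59, adjusted p = 1.1e-06, edgeR). *Nampt* was not called (0.28), but it was called higher after the length correction (0.91) and lower with library totals (-0.45).

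**Figure D3:**
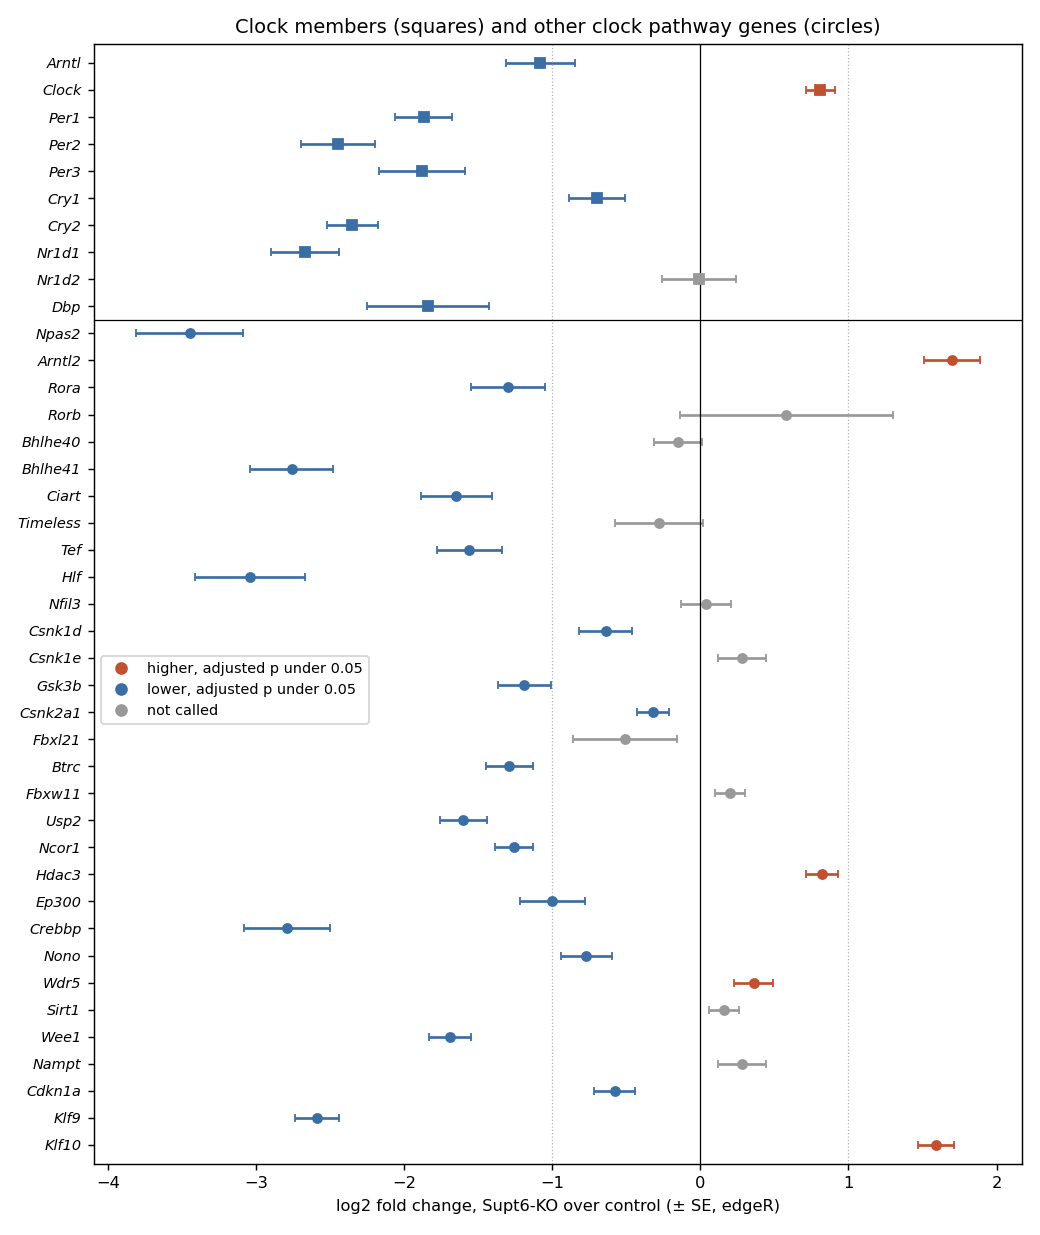
log2 fold change (*Supt6*-KO, n = 4, over control, n = 5) ± SE from edgeR for the 10 clock genes (squares) and 31 other pathway genes (circles), coloured by call at an adjusted p under 0.05, with dotted lines at a 2-fold change. *Npas2* lies lowest at -3.45 and *Arntl2* highest at 1.70, 8 of the 10 clock genes lie left of 0 and are called, and *Nr1d2*, whose sign turns with the processing, lies at 0.

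Genes of the hormonal and cAMP routes that can induce *Per* transcription were examined as well. Of 9 such genes 6 were called lower (36.8% of all genes) and 1 higher (34.1% of all genes) by edgeR. The glucocorticoid receptor gene *Nr3c1* fell (log2 fold change -1.22, and -0.39 after the length correction), and of 4 genes that the receptor induces, *Fkbp5* (-2.68), *Tsc22d3* (-1.43) and *Zbtb16* (-4.04) fell whereas *Sgk1* was not called (-0.19). *Zbtb16* fell from 77.2 ± 14.9 to 4.71 ± 1.35 CPM (adjusted p = 2.1e-07, edgeR). On the cAMP side the CREB coactivator genes *Crtc1* (-2.46, and -1.62 after the length correction) and *Crtc2* (-0.95) fell, *Creb1* was not called (0.06), and *Crem* rose (0.94), but not with library totals (0.26) or after the length correction (0.30).

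Markers of several cell types, though not all, also differed between the groups in summed level. Their counts stand against 36.8% of all genes called lower, 34.1% higher and 71.0% in either direction, and some, such as those of the fibroblast list, lie near these shares. The sums overlapped between the groups for the hair follicle, fibroblast, adipocyte and endothelial lists. The same held for the suprabasal, macrophage and basal keratinocyte lists described further on. Of 7 hair follicle markers 6 were lower, and their sum was 580 ± 706 CPM in the controls, from 9.11 in control 5 to 1778 in control 1, and 51 ± 25.4 CPM in the *Supt6*-KO mice. *Krt71* was the most abundant of them in controls 1 to 4, *Lgr5* in control 5 and *Tchh*, which was not called, in all *Supt6*-KO mice. The 6 skeletal muscle markers, led by *Acta1* in the controls and *Mylpf* in the *Supt6*-KO mice, summed to 4106 ± 455 and 982 ± 199 CPM (5 lower). The 5 sebocyte markers, led by *Scd1*, summed to 6780 ± 543 and 1472 ± 344 CPM (4 lower, 1 higher), and the 7 fibroblast markers, led by *Col3a1*, to 5861 ± 2941 and 2936 ± 801 CPM (4 lower). Cartilage markers fell to 32.8 ± 2.27 CPM, with all 4 that could be tested lower and *Matn1* at or near 0 counts throughout. The 5 adipocyte markers, led by *Fabp4*, summed to 311 ± 71.3 and 317 ± 61.7 CPM (4 lower), the 5 endothelial markers, led on average by *Pecam1* in the controls and *Egfl7* in the *Supt6*-KO mice, to 76.2 ± 20.5 and 47.8 ± 5.26 CPM (4 lower, 1 higher), and the 4 T cell markers with a row, led by *Cd3g*, to 24.8 ± 2.96 and 5.11 ± 1.5 CPM (2 lower, 1 higher).

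In the other direction, the 4 stress keratins, led by *Krt17* in the controls and *Krt16* in the *Supt6*-KO mice, rose from a sum of 383 ± 109 to 9169 ± 9188 CPM, all 4 called, and 5 of 6 neutrophil markers rose, their sum going from 27.4 ± 12.4 to 4656 ± 1621 CPM. *S100a9*, a gene that stressed keratinocytes also express, led that sum on average in both groups. The receptor genes *Csf3r* (log2 fold change 4.08, adjusted p = 8.7e-07, edgeR) and *Cxcr2* (1.15) rose, as did *Ly6g* (4.56, adjusted p = 0.0076, edgeR), which like *Mpo*, the one that fell (-4.62), was below 1 CPM in every mouse. Of 5 suprabasal markers, led by *Krt10*, 3 rose and 1 fell, with sums of 17888 ± 752 and 32776 ± 9813 CPM. Macrophage markers, led by *Csf1r*, the one that fell (-1.83), in the controls and *Mrc1* in the *Supt6*-KO mice, summed to 104 ± 35 and 169 ± 16.8 CPM (4 higher, 1 lower), and proliferation markers, led by *Pcna*, to 220 ± 18.6 and 432 ± 261 CPM (3 higher). The 5 basal keratinocyte markers, which define the cells in which Cre acts, summed to 9348 ± 401 and 8257 ± 3766 CPM, led by *Krt5* in the controls and in the *Supt6*-KO mice by *Krt14*, which was not called, while 4 were lower. The part of these differences in the clock results was not tested.

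The calls for 8 of the 10 genes held their direction and stayed under the threshold in all 17 alternatives tried. The size of the changes moved with the choice more than with any mouse. With library totals in place of TMM factors, which put the median of all genes at -0.759, *Clock* had 0.12 (adjusted p = 0.43, edgeR) and *Nr1d2* -0.75 (adjusted p = 0.0094, edgeR), so relative to that median *Clock* still lay above and *Nr1d2* level with it. Besides its effect on the *Per* genes, the correction for transcript length raised the log2 fold change of *Clock* to 1.78 and took *Dbp*, the shortest of these transcripts at 1252 bases, to -2.48. Among the 7 mice with Y-linked counts, where 5431 of the 16232 genes tested were lower and 5029 higher, 8 of the 10 genes were lower and 1 higher, as with all mice, and of the 31 other pathway genes 17 were lower and 3 higher, *Csnk2a1* and *Wdr5* no longer being called.

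**Figure D4:**
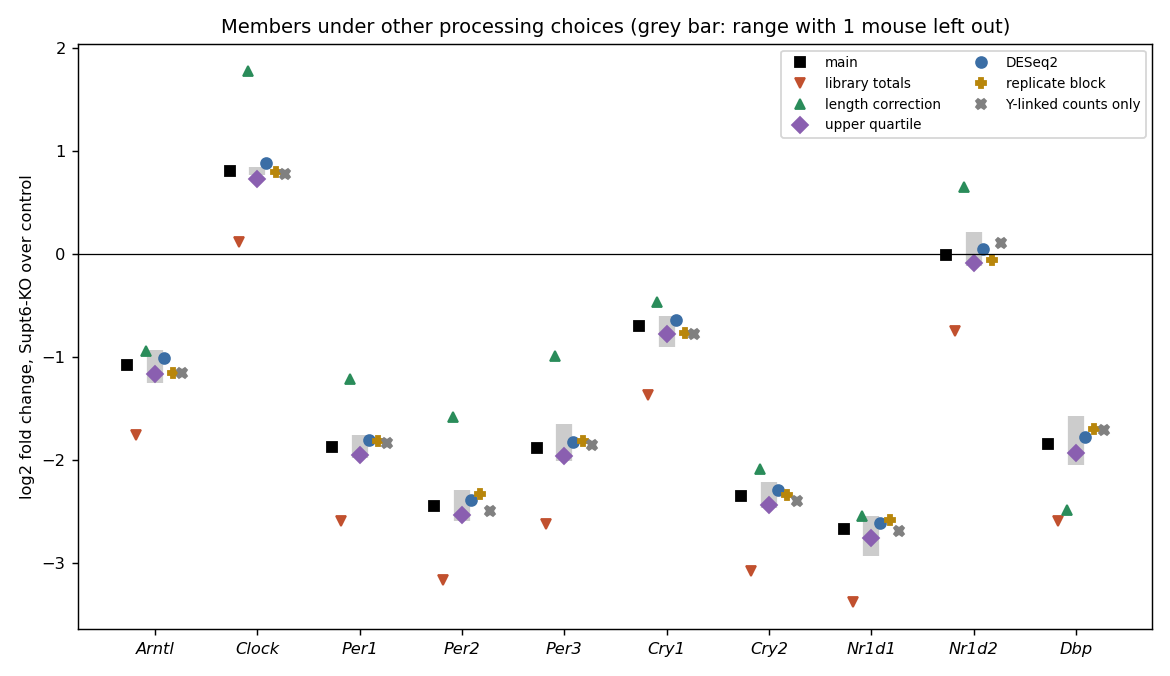
log2 fold change (*Supt6*-KO over control) of the 10 clock genes in the fit as made (black squares) and under 6 other choices of processing, with grey bars for the range over 9 fits that leave out 1 mouse each. *Clock* stays above 0 throughout but is only 0.12 with library totals, *Nr1d2* falls on both sides of 0, and the other 8 genes stay below 0 in all.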

How the data were processed

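Total RNA of whole skin from 9 mice was sequenced as mRNA libraries with paired-end reads. Bowtie2 (2.3.4.3 in the submitters' processing notes, which also name HISAT) was the aligner, to mm10, and RSEM 1.3.1 the counter. The authors deposited its estimated counts, which are not normalized between mice, and TPM for 6 of the mice. The annotation release is not given in the sources used here. About 9% of the values were not whole, and all were rounded. Of 17943 gene identifiers 17850 matched a RefSeq gene (*Arntl* by symbol, the other 9 by NCBI number), and transcript lengths and overlaps are from GENCODE M21.

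Genes with a sum under 10 counts over the 9 mice were left out. The groups were compared with edgeR 4.0.16 in R 4.3.3 (TMM, glmQLFit and glmQLFTest, no covariates, Benjamini-Hochberg adjustment). The SE is the log2 fold change divided by the square root of F. TPM were used for the order of levels only. Exact permutation tests used mean log2 CPM (prior count 2). Other choices tried were library totals or upper-quartile factors in place of TMM, DESeq2 1.42.0, no filter, at least 10 counts in every mouse, a replicate block, a loess correction for transcript length, each mouse left out and, added after the data had been seen, the mice with Y-linked counts only. The scripts were tested on simulated data. Python 3.11.15 with scipy 1.17.1 and pandas 2.3.3 made the tables.

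The 10 genes and all gene lists were chosen with earlier results of these data known, so counts over them are descriptions. The results for some genes of the pathway are not reported here, and the list leaves them out. Named genes were *Supt6*, the 10 genes, the genes of the pathway and *Per* input lists, the most abundant marker of each cell type list in each group and the 5 genes nearest to *Arntl* and to *Dbp*. Other genes named for an overlap, a defining marker or a ratio were chosen after the values were seen.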

Additional observations from a re-analysis of the deposited data

Results flagged for a closer look

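In 10 of the 102 groups of mice examined, 1 mouse stood far from the rest of its group by Dixon's ratio at its 95% limit, where about 5.1 would by chance. Among the clock genes *Nr1d1* was high in *Supt6*-KO mouse 1 (9.9 CPM, group median 5.83), and *Nr1d2* was low in *Supt6*-KO mouse 4 (53 CPM, median 121). Among the other pathway genes *Npas2* was high in control 4 (12.3 CPM, median 6.39), *Arntl2* was high and *Bhlhe40* low in control 3 (5.48 CPM, median 3.53, and 52.8 CPM, median 61.9), and *Wdr5* was high in *Supt6*-KO mouse 4 (77.6 CPM, median 59.5). Control 5 had 4 of the 10: *Bhlhe41* (18.8 CPM, median 10.9) and *Nr3c1* (144 CPM, median 123) were high, and *Nampt* (123 CPM, median 148) and *Tsc22d3* (613 CPM, median 754) were low. Control 5 also had the highest length slope and the lowest hair follicle sum of the controls, and their part in these values was not tested.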

How the results depend on the processing

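Of the 10 genes, *Arntl*, *Per1*, *Per2*, *Per3*, *Cry1*, *Cry2*, *Nr1d1* and *Dbp* kept their direction and their call in all 17 alternatives, with the weakest adjusted p at 0.037 (*Cry1*), and *Clock* in all but library totals (0.12). With library totals 2771 of all genes were higher, 1470 of them at least 2-fold, and 8970 were lower, 6802 of them at least 2-fold. Of the 10 genes 0 were then higher and 9 lower, of the 31 other pathway genes 2 were higher (1 at least 2-fold) and 26 lower (19 at least 2-fold), and of the 9 *Per* inputs 0 were higher and 8 lower. After the length correction 1 of the 10 genes was higher at least 2-fold (*Clock*, 1.78) and 5 lower at least 2-fold (7 without the correction), where 3045 of all 16363 genes were higher and 3263 lower at least 2-fold. Of the 31 other pathway genes 8 were then higher (2 at least 2-fold) and 14 lower (9 at least 2-fold), and of the 9 *Per* inputs 0 were higher and 6 lower. *Nr1d2* changed sign with DESeq2 (0.05), the length correction (0.65), without control 2 (0.03), control 3 (0.09) or *Supt6*-KO mouse 4 (0.21) and with the mice with Y-linked counts only (0.11), never called in these, lay between -0.12 and 0.21 with 1 mouse left out, and was called lower with library totals (-0.75, adjusted p = 0.0094, edgeR). With 1 mouse left out, 5305 to 5729 genes were higher and 5669 to 6392 lower, and of the 10 genes 8 were lower and 1 higher each time, 6 to 7 lower at least 2-fold.

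Mice with the same number in the labels did not deviate together in every pair (correlations of deviations -0.011, 0.243, 0.222 and 0.0592). The mean was 0.128 for these pairs and -0.025 for the 16 other pairs of a control and a *Supt6*-KO mouse. So few pairs cannot tell whether the numbers pair mice, and the fit as made treats the mice as unpaired. A replicate block gave 8 of the 10 genes lower and 1 higher, and 5251 of all genes higher and 5800 lower. Each of the 10 genes had 78 or more counts in every mouse.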
